A study of Mus musculus with 6 samples.

Results

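The genes described here are 10 members of the Notch pathway, followed through open chromatin in mouse small intestinal organoids, which are crypt-like epithelial structures kept in culture. They are the receptor genes Notch1 and Notch2, the ligand genes Dll1, Dll4, Jag1 and Jag2, the receptor-modifying glycosyltransferase gene Lfng, the genes of the nuclear complex Rbpj and Maml2, and the target gene Hes1. Members were chosen by name. Their windows are all 200-bp windows whose nearest protein-coding gene end (start or end of the gene, mm10) belonged to a member and lay within 50 kb of the window centre. That gave 41 windows of 55056, with 3 to 5 for each gene, and 26 of the 41 held enough counts to be tested.

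Accessibility was measured by ATAC-seq, in which the transposase Tn5 places sequencing adapters in open DNA, on 50000 cells a library. The treated group (n = 3 libraries) received RANKL, the TNF family cytokine that drives the microfold cell fate, at 100 ng/mL for 6 days, after 3 days in ENR medium with 3 µM CHIR99021, a GSK3 inhibitor, and 1.5 mM valproic acid, a histone deacetylase inhibitor, and 1 day in ENR. The control group (n = 3 libraries) was kept for 6 days in ENR, the medium with EGF, Noggin and R-spondin 1. Whether controls also had the pretreatment is not given in the labels, where the control libraries carry the prefix CVENR without explanation, so its effect and that of RANKL cannot be told apart. All cultures came from a single wild-type organoid line, line26, taken from a female mouse with the Lgr5 GFP and diphtheria toxin receptor allele, and replicates were separate differentiation experiments.

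Library totals were 322173, 466521 and 828445 counts in RANKL replicates 1, 2 and 3, and 920681, 976881 and 455083 in control replicates 1, 2 and 3, so that 3 counts were worth 3.07 to 9.31 CPM (counts scaled to the library's total). Correlations of log2 CPM across tested windows were 0.69 to 0.77 among RANKL libraries, 0.82 to 0.87 among controls and 0.44 to 0.54 between the groups. Of 10 markers of gut epithelium, among them Epcam, Cdh1 and Cdx2, all had windows and 9 were tested as sums of the 200-bp counts. By edgeR none of the 9 rose and Krt18 fell, while of all genes so tested 6.98% rose and 8.49% fell. In the wider 2-kb counts Krt20 rose and Krt18 and Cdx2 fell. Their summed accessibility was 935 to 1105 CPM in RANKL and 1050 to 1129 CPM in control libraries. Few markers of other cell types could be tested as such sums: 2 of 8 immune, 4 of 8 mesenchymal, 3 of 6 endothelial and 1 of 6 neural genes. Of these the mesenchymal gene Pdgfrb and the endothelial gene Cdh5 rose. In the 2-kb counts both rose as well, and the mesenchymal gene Vim fell (-1.44, edgeR adjusted p = 0.0114). Summed over each list, RANKL and control libraries spanned 53.3 to 83.1 and 54.7 to 73.1 CPM for immune, 104 to 170 and 95.2 to 132 CPM for mesenchymal, 114 to 163 and 119 to 165 CPM for endothelial, and 36.1 to 78.5 and 48.5 to 71.9 CPM for neural genes. No window lay near 5 of the immune, 1 of the mesenchymal, 1 of the endothelial and 3 of the neural genes, and the part of these cells in the results below was not tested. In bulk samples, fewer cells of a type and less open chromatin per cell cannot be told apart.

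In the Notch pathway a ligand of the Delta or Jagged family on one cell binds a Notch receptor on its neighbour, the receptor is cut, and its intracellular part enters the nucleus. There it joins the DNA-binding protein RBPJ and a Mastermind coactivator and turns on repressor genes such as Hes1. In the intestinal crypt this signal keeps progenitors out of the secretory fate and maintains stem cells, and the ligands DLL1 and DLL4 act there together.

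Windows overlapped the DNA just before the transcription start of several members, and 4 such stretches are shown, each as the 250 bases before the start, 5′ to 3′ on the strand of the gene (RefSeq, GRCm38.p6). These are 1 receptor gene, 2 ligand genes and the DNA-binding factor whose start windows are described below. Capitals mark every match to the motifs searched on both strands: the RBPJ core TGGGAA, the RBPJ paired-site core CGTGGGAA, which contains that core, the HES N-box CACNAG, the HES class C site CACGCG, the AP-1 site TGANTCA and the Ets core CCGGAA.
Notch1, chr2:26503823-26504072, minus strand: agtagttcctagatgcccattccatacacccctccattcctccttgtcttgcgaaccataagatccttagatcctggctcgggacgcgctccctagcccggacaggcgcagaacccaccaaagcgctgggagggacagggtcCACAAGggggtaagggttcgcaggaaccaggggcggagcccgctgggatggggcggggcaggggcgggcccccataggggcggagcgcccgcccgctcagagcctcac
Jag1, chr2:137116521-137116770, minus strand: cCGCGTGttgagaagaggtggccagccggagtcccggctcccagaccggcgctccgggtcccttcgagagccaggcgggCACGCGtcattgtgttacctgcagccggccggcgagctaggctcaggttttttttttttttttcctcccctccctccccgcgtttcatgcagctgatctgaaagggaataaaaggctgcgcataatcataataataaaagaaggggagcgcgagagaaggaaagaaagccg
Dll4, chr2:119325534-119325783, plus strand: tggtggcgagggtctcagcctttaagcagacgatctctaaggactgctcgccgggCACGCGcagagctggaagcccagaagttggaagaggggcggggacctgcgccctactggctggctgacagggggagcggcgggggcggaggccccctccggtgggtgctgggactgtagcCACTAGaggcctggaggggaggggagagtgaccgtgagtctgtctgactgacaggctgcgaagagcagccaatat
Rbpj, chr5:53590096-53590345, plus strand: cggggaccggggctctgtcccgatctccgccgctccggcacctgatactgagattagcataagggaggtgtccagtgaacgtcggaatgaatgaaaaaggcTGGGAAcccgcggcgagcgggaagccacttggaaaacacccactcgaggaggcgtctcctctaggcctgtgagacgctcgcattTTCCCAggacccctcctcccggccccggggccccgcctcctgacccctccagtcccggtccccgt

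The capitals are an N-box in Notch1, class C sites in Jag1, an N-box and a class C site in Dll4, and RBPJ cores in Rbpj. The start windows covered bases -87 to -1 of the Notch1 stretch, -250 to -176 of Jag1, -225 to -26 of Dll4 and -96 to -1 of Rbpj, counted back from the start. RefSeq listed 12 promoters for 9 members, and no sequence was used for Hes1. A class C site stood in 5 of the 12 promoters, those of Dll4, Jag1, Notch2, Lfng and a start of Dll1, and in 7.62% of all 32851 promoters of the same length. An N-box stood in 5 of the 12 (36.7% of all promoters) and an RBPJ core in 4 of the 12 (21.6% of all). The promoters with an RBPJ core include both listed for Rbpj, which overlap and share a core. The paired-site core was present in the Lfng promoter and in 0.636% of all promoters. The AP-1 site stood in 1 of the 12, at a start of Dll1 (6.75% of all), and the Ets core in none (12.0% of all). These letters are a description and say nothing of binding.

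Accessibility fell at 3 of the 10 members and rose at none when counts were summed over the windows of each gene (edgeR quasi-likelihood test, Benjamini-Hochberg adjusted p at or under 0.05, n = 3 per group). Jag1, Notch1 and Maml2 fell, and the other 7 were not called. Among all 12464 genes tested 8.49% were called lower, 6.98% higher and 15.5% either way. At an unadjusted p under 0.05 the same count was 3 of 10 members, beside 28.1% of all genes. In 4 members, these 3 and Lfng, all RANKL libraries lay below all controls, as in 14.4% of all genes, and in no member did they all lie above, as in 16.2% of all genes (30.6% for either direction). The median log2 fold change was -0.09 over the members and 0.01 over all genes tested. Window by window, 1 of 26 tested windows was called higher and 2 lower, beside 10.0% called higher and 10.0% called lower of all 21618 tested windows, or 20.1% in either direction. At an unadjusted p under 0.05 there were 7 of 26, beside 31.2% of all. Single windows of the members were thus called no more often than windows in general. Separation without overlap was seen in 9 of the 26, beside 33.1% of all tested windows. All RANKL libraries lay below all controls in 7 of the 26 and above them in 2. Of all 21618 tested windows, RANKL lay below in 3931 and above in 3232.

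**Figure D1:**
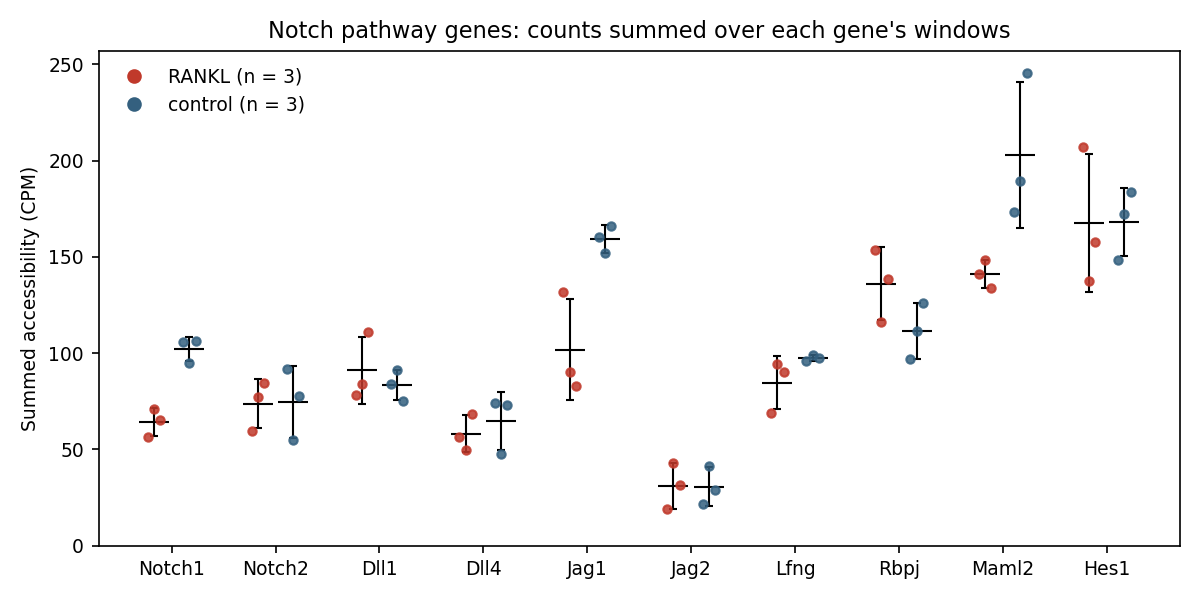
Summed accessibility in CPM (y axis) of the 10 members (x axis, ordered by role), with RANKL libraries (red) left of control libraries (blue), points for libraries and bars for mean ± SD (n = 3 each). Notch1, Jag1, Lfng and Maml2 have every RANKL point below every control point, and the groups overlap in the other 6 genes.

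Of the receptors, Notch1 fell and Notch2 did not pass the test. Notch1, the main receptor of crypt cells (chromosome 2, 26457902 to 26503822), had 56.5, 71.0 and 65.0 CPM in RANKL replicates 1, 2 and 3, against 106, 95.2 and 106 CPM in control replicates 1, 2 and 3. All RANKL libraries were lower than all controls. The log2 fold change was -0.68 ± 0.20 (SE; edgeR, adjusted p = 0.00827). The Notch1 call was lost with DESeq2 (-0.69, adjusted p = 0.0562) and with the wider 2-kb counts (-0.28, adjusted p = 0.127).

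Notch1 had 5 windows, of which 2 were tested, and both leaned the same way without passing the test on their own. The window on the Notch1 start, whose centre lay 12 bp inside the gene (26503710 to 26503909), had 18.8, 12.9 and 7.23 CPM in RANKL libraries, against 23.7, 25.3 and 28.8 CPM in controls. The groups did not overlap there, and the change was -1.10 ± 0.45 (log2, SE; adjusted p = 0.0663 with edgeR). One library decided its size: the value was -0.70 (adjusted p = 0.386) without RANKL replicate 3, -1.38 (0.0420) without RANKL replicate 1, and -0.35 in 2-kb counts. The strongest Notch1 window, 21556 bp inside the gene (26482166 to 26482365), had 34.5, 34.4 and 36.1 CPM in RANKL libraries, against 45.2, 49.6 and 57.6 CPM in controls. The groups did not overlap here either, with a log2 fold change of -0.45 ± 0.26 (SE, adjusted p = 0.232). A window 936 bp inside the other end of the gene held 1, 3 and 7 counts with RANKL and 15, 5 and 4 counts in controls, too few to test, as did the windows 8624 bp inside and 22095 bp outside.

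Notch2, a receptor that acts beside Notch1 (chromosome 3, 98013538 to 98150367), had 59.6, 77.4 and 84.3 CPM in RANKL libraries, against 91.6, 54.7 and 77.5 CPM in controls. The groups overlapped widely (log2 change 0.01 ± 0.21, SE, edgeR adjusted p = 0.973, approximate 95% interval -0.39 to 0.42). Its start window, 35 bp outside the gene (98013403 to 98013602), was also its strongest, with 28.2, 30.1 and 48.2 CPM in RANKL libraries and 24.8, 22.3 and 37.6 CPM in controls (0.55 ± 0.31, adjusted p = 0.217). Without RANKL replicate 3 this value was 0.16 (adjusted p = 0.852), and in 2-kb counts it was 0.048. Of the other 3 windows, all inside the gene, 1 was tested and passed no test. Whether the change at Notch1 differed from that at Notch2 was not tested.

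Among the ligands Jag1 fell, and the Delta genes and Jag2 did not pass the test. Jag1 (chromosome 2, 137081451 to 137116520) encodes a Jagged ligand. Summed over 4 windows it had 132, 90.3 and 83.1 CPM in RANKL libraries, against 160, 152 and 166 CPM in controls. The highest RANKL library, replicate 1, was still below the lowest control. The log2 fold change was -0.76 ± 0.16 (SE; edgeR, adjusted p = 0.000102) in these counts and -0.91 ± 0.10 (adjusted p = 1.05511e-11) in the 2-kb counts.

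All 4 Jag1 windows had negative changes and lay before the gene start, and a test of unequal change among them was not passed (adjusted p = 0.554). The window farthest from the gene, 37509 bp before the start (137153929 to 137154128), was the only Jag1 window called: it had 6.28, 6.45 and 14.5 CPM in RANKL libraries, against 30.2, 18.2 and 31.0 CPM in controls. The groups did not overlap, and it fell by 1.27 ± 0.46 on the log2 scale (SE, edgeR adjusted p = 0.0323). That call rested on 2, 3 and 12 against 28, 18 and 14 counts and ended with DESeq2 (adjusted p = 0.136), with no filter (0.0692) and without RANKL replicate 1 (0.0919), RANKL replicate 2 (0.140) or control replicate 3 (0.0860). The strongest window, 276 bp before the start (137116696 to 137116895), had 94.1, 60.2 and 51.8 CPM in RANKL libraries, against 72.2, 100 and 102 CPM in controls. RANKL replicate 1 lay above control replicate 1 here, and the log2 fold change was -0.47 ± 0.19 (adjusted p = 0.0663). Without RANKL replicate 1 it was -0.66 (adjusted p = 0.0151), without control replicate 1 -0.64 (0.0211) and with loess offsets -0.50 (0.0318). It was smaller, at -0.25 (0.509), without RANKL replicate 3 and at -0.27 (0.521) after thinning.

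Dll1, one of the Delta ligands of crypt cells (chromosome 17, 15367354 to 15376932), had 78.5, 83.9 and 111 CPM in RANKL libraries, against 84.0, 91.1 and 75.3 CPM in controls. The groups overlapped (0.13 ± 0.19, SE, edgeR adjusted p = 0.707, approximate 95% interval -0.24 to 0.50). Its strongest window covered another listed start, within the gene and 1025 bp from the gene end, with 31.4, 25.8 and 32.5 CPM in RANKL and 22.6, 22.3 and 31.0 CPM in control libraries (0.34 ± 0.35, adjusted p = 0.538). A window 3875 bp before the gene had all RANKL libraries above all controls, at 15.7, 19.4 and 24.1 against 12.9, 11.1 and 6.64 CPM. It was not called in these counts (0.95 ± 0.49, adjusted p = 0.167). In the 2-kb counts it was called higher (0.85 ± 0.31, edgeR adjusted p = 0.0414). The window 10600 bp outside the gene was called lower there (-0.92 ± 0.29, adjusted p = 0.0197).

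Dll4, the other Delta ligand (chromosome 2, 119325784 to 119335666), had 56.5, 49.5 and 68.6 CPM in RANKL libraries, against 74.3, 47.6 and 73.1 CPM in controls. The groups overlapped (-0.12 ± 0.23, SE, edgeR adjusted p = 0.782, approximate 95% interval -0.56 to 0.32). The start window, 125 bp before the gene (119325559 to 119325758), had 18.8, 10.8 and 36.1 CPM in RANKL libraries, against 28.0, 18.2 and 22.1 CPM in controls. RANKL replicates 2 and 3 were the lowest and the highest of all 6 libraries there (0.13 ± 0.38, adjusted p = 0.852). The strongest Dll4 window, 7134 bp before the gene, also overlapped (-0.13 ± 0.39, adjusted p = 0.852).

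Jag2, the second Jagged ligand (chromosome 12, 112907803 to 112929812), was the member with the least accessibility: 18.8, 43.0 and 31.3 CPM in RANKL libraries, against 21.5, 41.5 and 28.8 CPM in controls. The log2 fold change was 0.01 ± 0.34 (SE, edgeR adjusted p = 0.989), with an approximate 95% interval of -0.65 to 0.67, so that a smaller change was not detectable at this depth. A single Jag2 window was tested, 1300 bp inside the gene (0.46 ± 0.38, adjusted p = 0.426).

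Lfng, whose enzyme adds sugars to Notch receptors and so shifts their preference between ligands, was not called as a sum, while a window before its start was called lower. Its sum (chromosome 5, 140607341 to 140615545) was 69.0, 94.6 and 90.3 CPM in RANKL libraries, against 95.9, 99.2 and 97.4 CPM in controls. The groups did not overlap, but the difference was small (-0.20 ± 0.19, SE, edgeR adjusted p = 0.507). The window 10395 bp before the start (140596846 to 140597045) fell: it held 0, 3 and 6 counts, or 0, 6.45 and 7.23 CPM, in RANKL libraries, against 23, 21 and 8 counts, or 24.8, 21.3 and 17.7 CPM, in controls. It fell by 1.91 ± 0.58 on the log2 scale (SE, edgeR adjusted p = 0.00804), a call that ended with DESeq2 (adjusted p = 0.0633). Without control replicate 1 or control replicate 2 it held too few counts to be tested.

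The strongest Lfng window, 4059 bp inside the gene (140611386 to 140611585), had 50.2, 73.1 and 56.6 CPM in RANKL libraries, against 68.9, 71.9 and 75.3 CPM in controls (-0.21 ± 0.20, adjusted p = 0.515). Past the other end, 1331 bp outside the gene (140616776 to 140616975), a window had 18.8, 15.1 and 26.5 CPM in RANKL libraries, against 2.15, 6.07 and 4.43 CPM in controls. All RANKL libraries were higher there, but with 6, 7 and 22 against 2, 6 and 2 counts it fell below the filter and was not tested. With no filter its log2 value was 2.31 (adjusted p = 0.00559 in edgeR), and with DESeq2 it was 2.34 (adjusted p = 0.0208). Between the 2 tested windows the change was unequal (diffSpliceDGE adjusted p = 0.0225), and 22.7% of the 3926 genes so tested were called. With the experiment number as a replicate block the adjusted p was 0.0512. The window before the start entered this test through the control libraries alone, where it was high. The test is therefore no separate support for a difference between the windows.

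**Figure D2:**
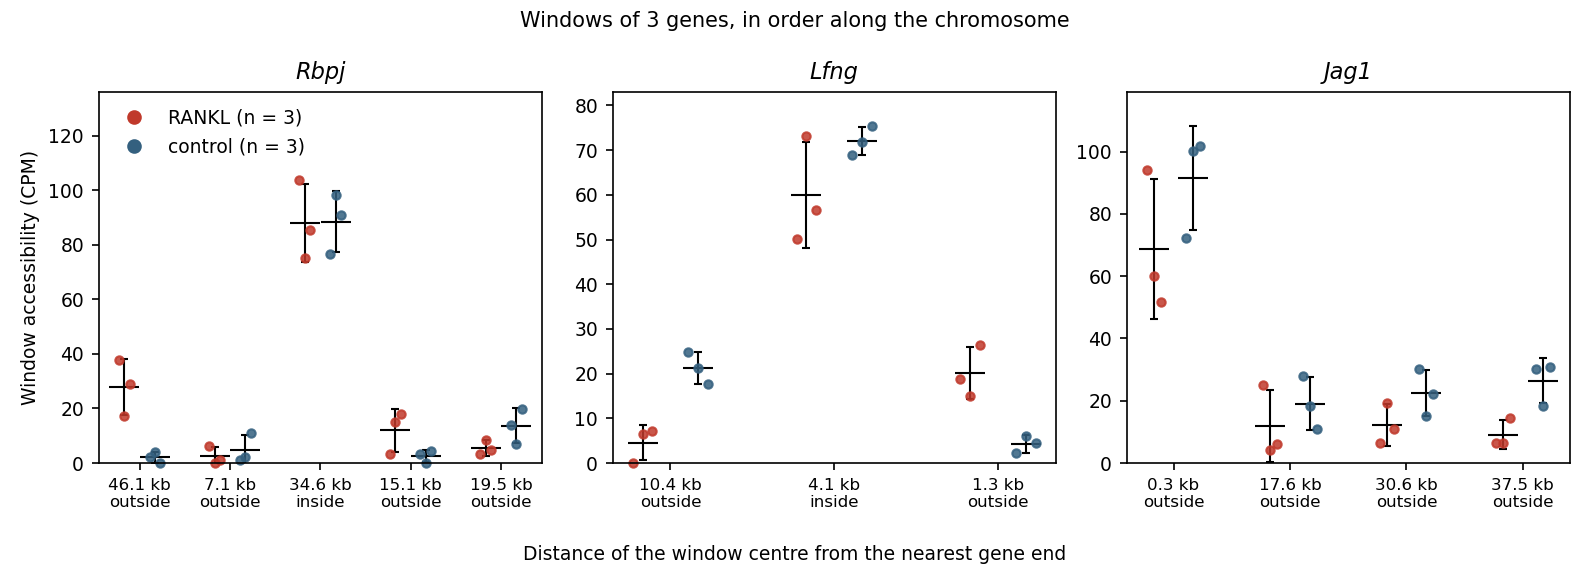
Accessibility in CPM (y axis) of every window of Rbpj, Lfng and Jag1, in chromosome order along the x axis, which gives the distance of the centre from the nearest gene end, RANKL libraries (red) left of controls (blue), and bars for mean ± SD (n = 3 each). RANKL points lie above all controls 46098 bp outside Rbpj and 1331 bp outside Lfng, and below all controls 10395 bp outside Lfng and 37509 bp outside Jag1.

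Rbpj, which encodes the DNA-binding factor that all Notch receptors share, held the largest change of any tested member window. The window lay 46098 bp before the gene (chromosome 5, 53509581 to 53509780) and about 80665 bp before the start whose promoter is printed above. It held 12, 8 and 24 counts, or 37.7, 17.2 and 28.9 CPM, in RANKL libraries, against 2, 4 and 0 counts, or 2.15, 4.05 and 0 CPM, in controls. Every RANKL library was far above every control. The window rose by 3.39 ± 0.63 on the log2 scale (SE, edgeR adjusted p = 2.7651e-06), and by 1.90 ± 0.39 (adjusted p = 0.000154) in its 2-kb counts. It passed the filter on low counts through the RANKL libraries alone, all 3 of which were over the minimum of 15.4 CPM, and with no filter the change was 3.42 (adjusted p = 6.957e-06). Without RANKL replicate 3, and with libraries thinned to the same depth, the window held too few counts to be tested. Rbpj is only the nearest protein-coding gene, which need not be the gene that the window regulates.

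The window on the Rbpj start did not move with it in the 200-bp counts. It was the strongest Rbpj window, at 53590250 to 53590449, and had 104, 75.3 and 85.5 CPM in RANKL libraries, against 76.5, 98.2 and 90.8 CPM in controls. The log2 fold change was 0.01 ± 0.18 (SE, edgeR adjusted p = 0.988), while in the 2-kb counts it was -0.57 ± 0.13 (adjusted p = 0.00105). The change of the distant window exceeded that of the other tested window of Rbpj (diffSpliceDGE gene test, adjusted p = 2.23895e-06), and of the 9 members so tested 2, Rbpj and Lfng, were called, a share like the 22.7% of all genes so tested. Set against the rest of its gene, the distant window was the only one called of 25 member windows so tested (2.09, adjusted p = 4.8291e-05), beside 6.78% of 10312 windows. The distant window entered both comparisons through the RANKL libraries alone, where it was high. They are therefore no separate support for a difference between the windows. The Rbpj sum (53555779 to 53657445) was 154, 116 and 138 CPM in RANKL libraries, against 96.9, 111 and 126 CPM in controls, which overlapped (0.27 ± 0.16, SE, adjusted p = 0.271). The other 3 windows were too shallow to test. One of them, 15056 bp past the gene, held 1, 7 and 15 counts in RANKL and 3, 0 and 2 counts in control libraries.

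Maml2, a Mastermind coactivator of the Notch complex (chromosome 9, 13296561 to 13709533), fell. It had 141, 148 and 134 CPM in RANKL libraries, against 173, 189 and 246 CPM in controls. All RANKL libraries were lower, and control replicate 3 was the highest library. The log2 fold change was -0.53 ± 0.14 (SE, edgeR adjusted p = 0.00294). No single window carried it: the 3 tested windows, all inside the gene and all with RANKL below control, had log2 fold changes of -0.45, -0.31 and -0.45, and none was called. The strongest, 27673 bp from a gene end (13681760 to 13681959), had 62.8, 68.8 and 59.0 CPM in RANKL libraries, against 74.3, 86.0 and 117 CPM in controls (adjusted p = 0.0773). The window at the gene end, 51 bp inside (13296512 to 13296711), had 47.1, 36.6 and 48.2 CPM in RANKL libraries, against 48.5, 62.8 and 86.4 CPM in controls (adjusted p = 0.163). Limited to distances of 5 kb or 1 kb, the Maml2 call ended (adjusted p = 0.0989 and 0.0916), and with windows out to 200 kb the change was -0.32 (adjusted p = 0.050).

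Hes1, the repressor gene that is the best known Notch target in the crypt (chromosome 16, 30065357 to 30067796), was among the most accessible members and was not called as a sum. It had 207, 138 and 158 CPM in RANKL libraries, against 149, 172 and 184 CPM in controls. RANKL libraries held both the highest and the lowest value, and the log2 fold change was -0.06 ± 0.14 (SE, edgeR adjusted p = 0.814, approximate 95% interval -0.34 to 0.21). The interval leaves out a rise or fall as large as the fall of Jag1 in this fit, while smaller changes of Hes1 could be missed. Its strongest window, 1050 bp outside the gene (30064207 to 30064406), had 69.0, 62.4 and 56.6 CPM in RANKL libraries, against 43.1, 58.7 and 42.1 CPM in controls (0.35 ± 0.22, adjusted p = 0.286). The next, 9689 bp outside, leaned the other way, with 56.5, 34.4 and 50.6 against 57.1, 54.7 and 66.4 CPM (-0.27 ± 0.23, adjusted p = 0.454). In the 2-kb counts this window was called lower (-0.50 ± 0.17, edgeR adjusted p = 0.0286), and no other Hes1 window was called.

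**Figure D3:**
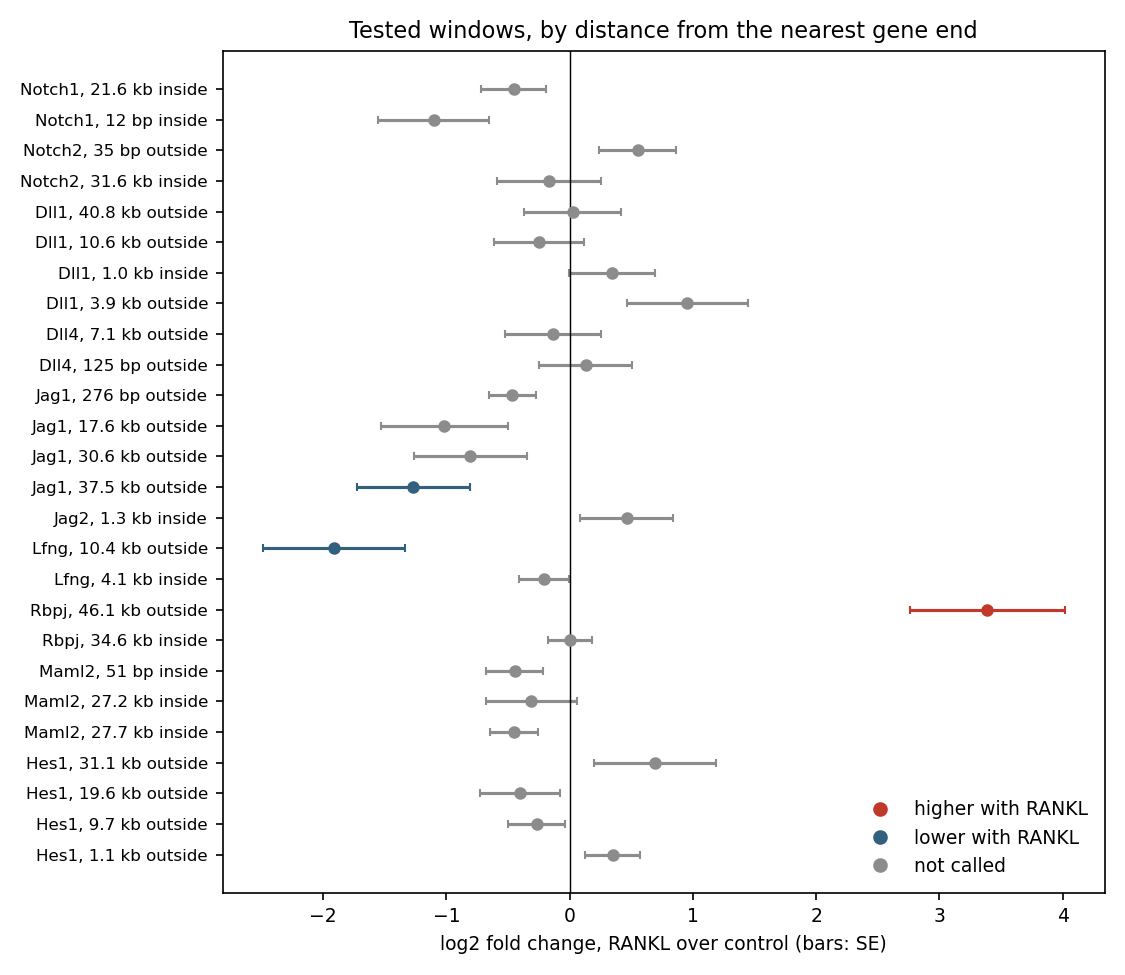
Log2 fold change, RANKL over control, with SE bars (x axis) for the 26 tested member windows (y axis, grouped by gene, with the distance of the window centre from the nearest gene end). The window 46098 bp outside Rbpj was called higher (red), those 37509 bp outside Jag1 and 10395 bp outside Lfng were called lower (blue), and the other 23 were not called (grey).

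The 3 called windows of the members lay outside the genes and over 1 kb from a gene end, and each entered the test only through the group where it was high: RANKL for Rbpj, and control for Lfng and Jag1. Of 5 tested member windows within 1 kb of a gene end none was called by edgeR (2 had RANKL below control without overlap), and DESeq2 called none of them either. Over all tested windows within 1 kb, 9.22% were called higher and 2.92% lower, and beyond 1 kb 10.5% and 14.4%. Of 16 tested windows outside the genes 3 were called, and of 10 inside none, although 5 of these 10 had all RANKL libraries below all controls. The numbers called are no higher than the 20.1% called in either direction over all tested windows. RANKL lay below all controls in 18.2% of all tested windows, and in 711 of 8176 tested windows within 1 kb of a gene end. Of the 16 tested member windows outside the genes it did so in 2. Over all tested member windows 34.6% were separated in either direction, beside 33.1% of all tested windows. The share for all windows inside genes was not computed. The difference in place was not tested. The limit of 50 kb decides which windows count: the farthest window inside it is the responsive one near Rbpj, and the nearest of 35 windows beyond it lies within Notch2, 51560 bp from a gene end, with 6.28, 4.30 and 13.2 CPM in RANKL libraries and 20.5, 23.3 and 15.5 CPM in controls.

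Counts of the 2-kb windows gave a deeper view of the same centres, which contain the 200 bp and so are not independent of them. Of the 41 member windows 38 were tested, 3 were called higher and 11 lower, beside 8.37% higher and 10.2% lower of all 49935 tested 2-kb windows. Summed per gene, Jag1 and Maml2 were lower and no member was higher, beside 12.3% lower and 9.38% higher of 15593 genes. The higher ones were the window 46098 bp from Rbpj, the window 1331 bp past Lfng (1.57 ± 0.40, SE, edgeR adjusted p = 0.00326) and the window 3875 bp before Dll1 (0.85 ± 0.31, adjusted p = 0.0414). Lower were 3 windows of Jag1, 2 each of Lfng and Maml2, and 1 each of Notch1, Dll1, Hes1 and Rbpj. At the Jag1 start the 2-kb window held 82, 101 and 184 counts in RANKL libraries, against 324, 416 and 193 counts in controls (-1.07 ± 0.13, adjusted p = 7.63952e-09). At the Rbpj start it fell too, by 0.57 ± 0.13 on the log2 scale (adjusted p = 0.00105), where the central 200 bp had 0.01. The central share of the 2-kb reads over all windows was 33.9% to 36.5% in RANKL libraries and 39.9% to 41.0% in controls, and the part of this difference in the results was not tested.

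**Figure D4:**
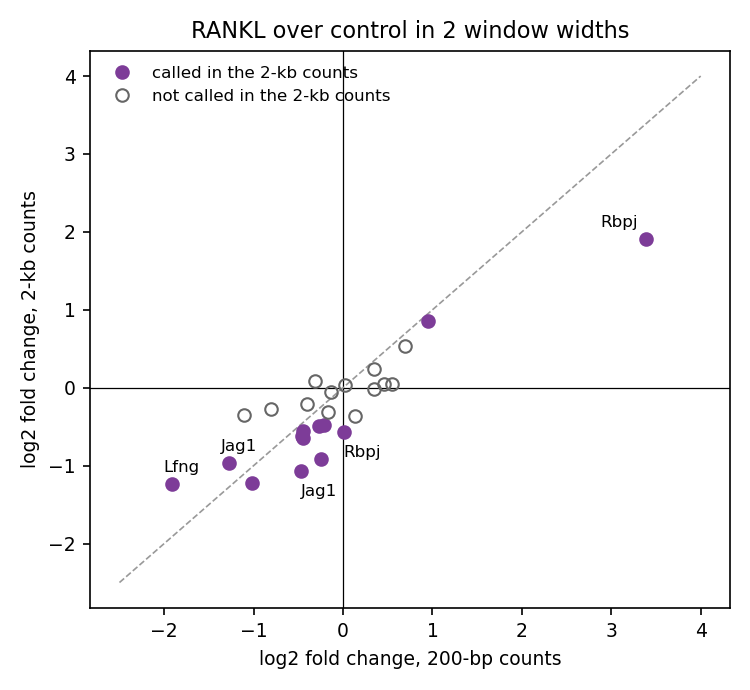
Log2 fold change, RANKL over control, in the 200-bp counts (x axis) and in the 2-kb counts around the same centres (y axis) for the tested member windows, with filled points for windows called in the 2-kb counts and a dashed line for equal values. Untested 200-bp windows are not drawn. The distant Rbpj window is at 3.39 and 1.90, and the start windows of Jag1 and Rbpj lie below the dashed line.

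The rest of the pathway was read from a list of 54 genes: 52 had windows, 44 were tested by edgeR on sums of the 200-bp counts, 3 rose, 2 fell and 39 were not called. Of all genes so tested 6.98% rose and 8.49% fell, so these counts are near or under the background. The median log2 fold change of the list was 0.15, against 0.01 over all genes. Neurl1a, which encodes a Neuralized ubiquitin ligase that acts on Notch ligands, rose most: it had 173, 118 and 140 CPM in RANKL libraries, against 33.4, 47.6 and 39.9 CPM in controls. The groups lay far apart. Its sum rose by 1.76 ± 0.20 on the log2 scale (SE, edgeR adjusted p = 9.2843e-15), and 2 of its 5 windows were called higher. Dlk1, a Delta-like protein without the domain that activates Notch, had 59.6, 25.8 and 61.4 CPM in RANKL libraries, against 21.5, 20.2 and 17.7 CPM in controls. It rose by 1.25 ± 0.33 (adjusted p = 0.00274), but without RANKL replicate 3 it had 0.96 (adjusted p = 0.153).

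Maml1, the sister gene of Maml2, rose where Maml2 fell, with 87.9, 103 and 111 CPM in RANKL libraries against 53.9, 77.9 and 70.9 CPM in controls. Its log2 fold change was 0.58 ± 0.20 (SE, edgeR adjusted p = 0.0268). The Maml1 call ended with the replicate block (0.53, adjusted p = 0.0814), with DESeq2 (0.138) and without RANKL replicate 2 (0.0703), RANKL replicate 3 (0.201) or control replicate 1 (0.216). Restricted to a distance of 1 kb, Maml1 had -0.0032 (adjusted p = 0.996). Whether Maml1 and Maml2 differed in their change was not tested.

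Dtx4, a Deltex ubiquitin ligase, fell: it had 220, 202 and 178 CPM in RANKL libraries, against 256, 312 and 365 CPM in controls. The log2 fold change was -0.68 ± 0.12 (SE, edgeR adjusted p = 1.78964e-06). Kat2b, a histone acetyltransferase gene, also fell, with 75.3, 79.6 and 60.2 CPM in RANKL libraries against 101, 101 and 113 CPM in controls (-0.62 ± 0.20, adjusted p = 0.0164). Leaving out RANKL replicate 3 took away the Kat2b call (-0.46, adjusted p = 0.202), as did DESeq2 (0.0939). The gamma-secretase genes Psen2, Ncstn, Aph1a, Aph1b and Aph1c, whose products cut the receptor, and the protease genes Adam10 and Adam17, were tested as sums of 200-bp counts with edgeR and none was called. In 2-kb counts Ncstn (-0.46, adjusted p = 0.0211) and Adam17 (-0.39, adjusted p = 0.0214) were lower. Aph1a, Aph1b and Adam10 have 1 window each, which was called higher among windows while the same reads were not called among gene sums. Also called higher was 1 window each of Numb, Maml1 and Maml3, while 2 of the 5 tested windows of Dtx4 were called lower. Over all tested windows 10.0% were called higher and 10.0% lower. Of the HES and HEY repressor genes, Hes2, Hes3, Hes5, Hes6, Hey1 and Hey2 were tested in the same 200-bp sums and none was called, while Hey1 was lower in 2-kb counts (-0.63, adjusted p = 0.0101).

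**Figure D5:**
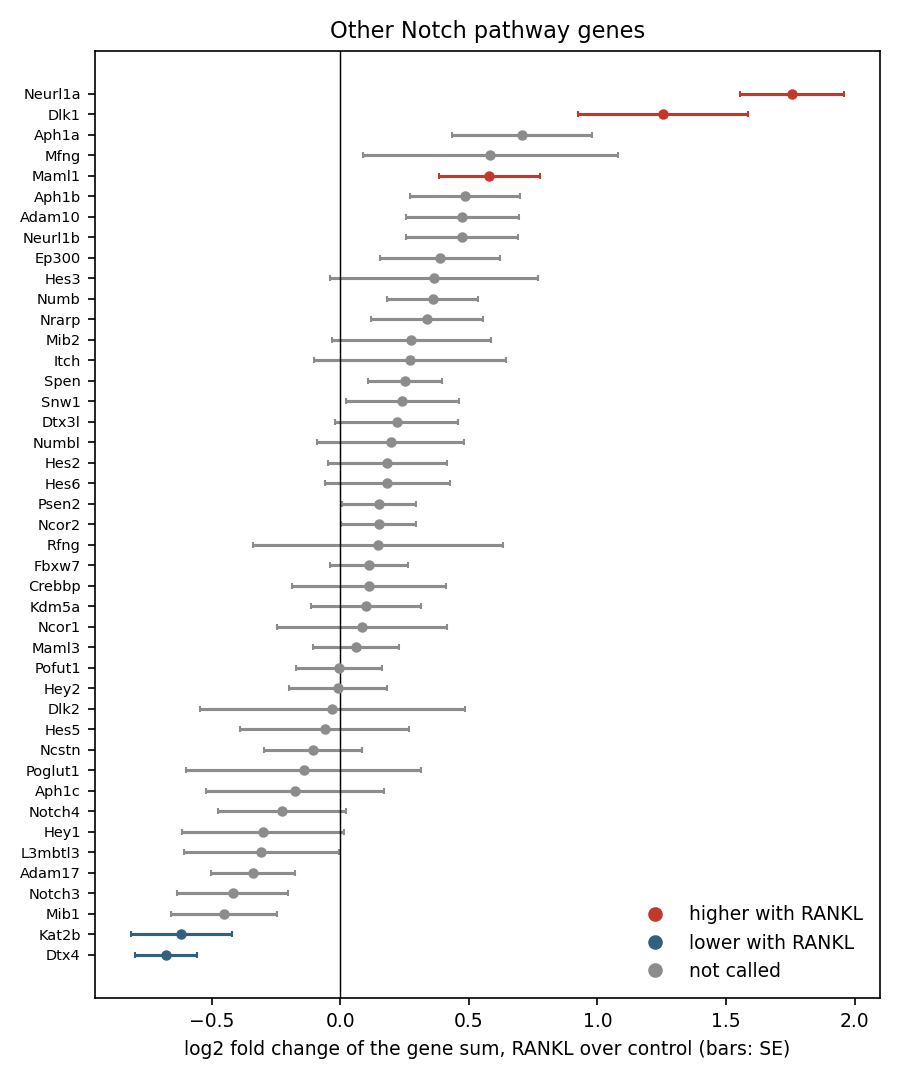
Log2 fold change of the gene sum, RANKL over control, with SE bars (x axis) for 43 of the 44 tested genes of the wider Notch pathway (y axis, sorted). Neurl1a, Dlk1 and Maml1 were called higher (red), Dtx4 and Kat2b lower (blue), and the 38 grey genes were not called.

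Of 7 genes that Notch holds in check or sustains in gut epithelium, 5 were tested by edgeR, 3 fell and none rose, with a median log2 fold change of -0.94, beside 8.49% lower, 6.98% higher and a median of 0.01 over all genes. Atoh1, the factor that starts the secretory fate and is repressed by HES1, had 126, 103 and 98.8 CPM in RANKL libraries, against 233, 188 and 213 CPM in controls (-1.03 ± 0.15, SE, edgeR adjusted p = 7.8772e-10). Olfm4, a stem cell gene that depends on Notch, had 53.3, 49.5 and 51.8 CPM in RANKL libraries, against 118, 112 and 88.6 CPM in controls (-1.12 ± 0.21, adjusted p = 5.64339e-06). Sox9, a factor of crypt progenitors, had 97.3, 108 and 107 CPM in RANKL libraries, against 198, 145 and 164 CPM in controls (-0.72 ± 0.15, adjusted p = 0.000107). In all 3 genes the groups did not overlap. Of the other listed genes Spdef was not called as a sum (-0.94, adjusted p = 0.113), though its 1 tested window was called lower. Gfi1 was not tested, Neurog3 had no assigned window, and Ascl2 was not called (-0.35, edgeR adjusted p = 0.617). Limited to a distance of 5 kb, Sox9 had -0.06 (adjusted p = 0.898), and with windows out to 200 kb Olfm4 had -0.31 (adjusted p = 0.170).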

How the data were processed

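The measurement was bulk ATAC-seq in 6 libraries. One deposited table holds unnormalised counts for 55056 windows, each 200 bp wide, as whole numbers with a different total in each library. A further deposited table holds 1 score for each of 55050 regions of 2 kb with matching centres, standardised to mean 0 in each library. By its values this score is a natural log of count plus 1, and undoing it gave numbers at most 0.0075 from whole. Per the submitters' processing notes, the authors' tools included DESeq2 1.34.0, MACS2 2.2.7, Picard, BWA 0.7.17 and fastp 0.20.1, with the builds GRCm38 and mm10. For the role of each tool, the placing of windows, the removal of duplicates and any Tn5 shift of read ends, the text is not given in the sources used here. Duplicate reads left in would make the counts look more precise than they are.

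Gene positions, strands and promoter sequences came from RefSeq tables of GRCm38.p6. Each window went to the nearest end of 21883 protein-coding genes, within 50 kb (38490 windows). Windows and sums per gene were tested in R 4.3.3 by the quasi-likelihood test of edgeR 4.0.16, made robust, after filterByExpr and TMM scaling and without covariates, and p-values were adjusted by Benjamini-Hochberg over all features tested, with a threshold of 0.05. Unequal change among the windows of a gene was tested with diffSpliceDGE. CPM scales a count to the library's total in all windows times its TMM factor, and gene CPM is the sum over windows. SE is the size of the log2 change over the square root of its F statistic. The main fits of windows and gene sums and the test of unequal change were also run on simulated data. The alternative fits named below were not.

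The members, the gene lists and the naming rule were chosen with earlier results of these data known. The rule named all 10 members. Of their windows it named those called, the strongest in each gene and those within 1 kb of a gene end. Of the other lists it named called genes. Other windows and genes given with values were chosen after their values were seen. The replicate number marks the experiment in the labels of both groups, so a fit with it as a block was an alternative. Same-numbered libraries had correlations of -0.034, 0.015 and -0.013 between their deviations from the group means. Other alternatives were DESeq2 1.42.0 and its size factors, no filter, each library left out, thinning, loess offsets, other distances, gene bodies and 2-kb counts. Testing the 2-kb windows singly was chosen after seeing the data. A gene of the wider pathway list is counted but not reported here by name.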

Additional observations from a re-analysis of the deposited data

How the results depend on the processing

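Of 506 recomputed single values, 432 kept their direction and their side of the threshold, and of 105 recomputed counts 74 stayed within 1.5 times the reported count. No alternative called a member gene higher, and 2 or 3 member genes were called lower in each. Leaving out each library in turn left 3 member genes lower, 0 to 3 member windows higher, 1 to 4 member windows lower, 1 to 2 members with unequal windows, and 2 to 4 other pathway genes higher and 1 to 2 lower. Member windows called higher and lower numbered 2 and 1 with no filter, 2 and 0 with DESeq2, 0 and 0 after thinning and 3 and 11 in 2-kb counts, and 4 were lower with loess offsets. After thinning fewer windows could be tested. Members with unequal windows numbered 1 with the replicate block and 0 after thinning; the block ended no other member call. Other pathway genes called higher numbered 0 from windows within 5 kb, 0 within 1 kb and 5 in 2-kb counts, and those called lower 1 after thinning, 1 with DESeq2, 1 within 5 kb, 1 within 1 kb and 5 in 2-kb counts.

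The direction turned in these cases, all of values not called in the report except Maml1, and the cause was not tested. Notch2 had -0.0051 with the replicate block, -0.073 after thinning, -0.0058 with DESeq2, -0.18 within 200 kb, -0.18 by gene body and -0.062 in 2-kb counts. Dll1 had -0.086 after thinning and -0.033 within 200 kb, Jag2 -0.014 with the replicate block and -0.049 with loess offsets, and Rbpj -0.0083 within 200 kb and -0.14 in 2-kb counts. Hes1 had 0.067 with loess offsets, 0.23 within 5 kb and 0.060 within 200 kb, Lfng 0.028 within 5 kb and Maml1 -0.0032 within 1 kb. The Dll4 start window had -0.052 with the replicate block and -0.36 in 2-kb counts, the Rbpj start window -0.18 after thinning, -0.016 with loess offsets and -0.57 in 2-kb counts, and the Hes1 window 1050 bp outside -0.013 in 2-kb counts. Without each library in turn the values ran over -0.22 to 0.25 for Notch2, -0.099 to 0.21 for Dll1, -0.34 to 0.041 for Dll4, -0.23 to 0.35 for Jag2, -0.18 to 0.031 for Hes1, -0.47 to 0.11 and -0.66 to 0.44 for the Dll4 windows 7134 and 125 bp outside, and -0.11 to 0.088 for the Rbpj start window. Depth limits the shallow windows most: 15 of 41 member windows could not be tested.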

Other observations

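Some windows lay inside a member gene but beyond the distance limit, and these were examined after the main results were known. Maml2 had 4 such windows deep in its body, of which 2 were tested and neither was called. The stronger of them, at chromosome 9, 13442406 to 13442605, had 56.5, 45.2 and 48.2 CPM in RANKL libraries, against 39.9, 28.3 and 64.2 CPM in controls. The groups overlapped, unlike the tested Maml2 windows nearer the gene ends, and the log2 fold change was 0.32 ± 0.26 (SE, edgeR adjusted p = 0.420). With these windows included, by assigning windows to gene bodies, the Maml2 change was -0.32 (edgeR adjusted p = 0.0495).

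Reads were more concentrated in the central 200 bp at Maml2 than at the other members. The central share of its 2-kb reads was 44.1%, 46.0% and 48.1% in RANKL replicates 1, 2 and 3, and 58.8%, 59.9% and 55.2% in control replicates 1, 2 and 3. At Notch1 the share was 30.5%, 27.7% and 26.5% in RANKL libraries, against 44.5%, 38.4% and 44.4% in controls. At Jag1 it was 35.3%, 26.6% and 24.0% in RANKL libraries, against 30.1%, 26.5% and 28.0% in controls, which overlapped. These shares count reads of low-coverage windows and were not tested.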
